A study of Tribolium castaneum with 8 samples.

Results

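Midline neuroblasts were taken as the cells to which the authors gave the label Midline_NBs in a deposited annotation of beetle and fly cells. The label was carried by 625 of 31573 annotated cells, 535 of 21148 cells of the red flour beetle Tribolium castaneum and 90 of 10425 cells of the fruit fly Drosophila. The beetle cells came from 8 droplet libraries (10x Genomics) of untreated embryos, 35 to 50 hours old, of a Gal4 enhancer trap line with turbo GFP in neuroblasts, and live fluorescent cells had been sorted. The labels write a different strain number for each library, from GoGal41519 to GoGal41526, while the design text names a single line, and the gene at which the trap sits is not given. For the fly cells, the labels state no genotype, stage or isolation, and species and these conditions cannot be told apart.

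Neuroblasts are neural stem cells of insects. In Drosophila the cells of the ventral midline come from the mesectoderm, a row of cells between mesoderm and neuroectoderm that is marked by the transcription factor Single-minded, and they form midline glia, midline precursors and a median neuroblast. The median neuroblast divides repeatedly and gives unpaired neurons and interneurons of the nerve cord. The title of the deposited table speaks of brain neuroblasts. The table holds labels and no expression values, so the label could not be checked against single-minded or any other marker, and what follows is about how often the label was given. All shares are of the annotated cells.

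The midline cells were spread unevenly over the beetle libraries. Libraries 1 to 8 held 25, 56, 1, 10, 44, 58, 94 and 247 of them. Library 8 thus held 46.2% of the beetle midline cells and 36.1% of the beetle cells, whereas library 5 held 8.22% of the midline cells and 17.6% of the cells. Library 3, with 77 cells in all, contributed 1 midline cell, and a label absent there could have had a share of up to 3.90%. Of the midline cells, 2 had a 16-base barcode that also occurs in another Tribolium library, no barcode was carried by more than 1 midline cell (0 barcodes), and none was repeated within a library (0 barcodes).

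As a share of all cells, Midline_NBs made up 1.43% in library 1, 2.84% in library 2, 1.30% in library 3, 2.55% in library 4, 1.18% in library 5, 3.13% in library 6, 2.52% in library 7 and 3.23% in library 8, against 0.863% in the Drosophila set. Libraries 1, 3 and 5 were low and the other 5 libraries were at 2.52% or more. The exact 95% binomial interval of library 5 (0.859% to 1.58%) did not reach those of libraries 2, 6, 7 and 8, whose lower bounds were 2.15%, 2.39%, 2.04% and 2.85%. The interval of library 1 (0.924% to 2.10%) was apart from those of libraries 2, 6 and 8. Of the 28 pairs of libraries, 7 had separate intervals. Intervals cover counting error, not the preparation of a library, and reach from 0.0329% to 7.02% in library 3.

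The differences between libraries were thus wider than counting error. The chi-square of midline cells over the 8 libraries was 7.92 per degree of freedom, where counting error alone gives about 1, and it was 6.19 without library 8. Among the 9 labels with more than 20 beetle cells this was the seventh in size over 8 libraries and the fourth without library 8. The chi-square grows with the number of cells of a label, so these ranks do not compare the relative spread of the labels. The labels give all libraries the same age and treatment, and no batch or date. Sequencing depth was not analysed here.

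The spread depended on what the midline cells were set against. Among the 4 labels that name neuroblasts without a question mark (Midline_NBs, NBs I, NBs II/INPs and Sensory NBs), midline cells made up 7.10%, 10.3%, 4.76%, 8.55%, 6.68%, 12.1%, 10.5% and 9.68% in libraries 1 to 8. The chi-square per degree of freedom was 2.07 there, and 1 of 28 pairs of libraries had separate intervals. Outside NBs I, the type I neuroblasts that bud off ganglion mother cells directly, midline cells made up 1.70%, 3.63%, 1.75%, 3.40%, 1.39%, 3.91%, 3.10% and 3.96% in libraries 1 to 8. The chi-square per degree of freedom was 8.70 for this share, with 8 of 28 pairs apart. Libraries 1 and 5 were therefore low in midline cells among all cells and among the cells outside NBs I, while among neuroblasts alone their intervals (4.65% to 10.3% and 4.89% to 8.86%) overlapped those of most other libraries. Against NBs I alone the chi-square lay between these. It was 4.85 per degree of freedom for midline cells among midline and NBs I cells together, and 2.68 without library 8. The relative spread was not intermediate. The SD was 37.1% of the mean for midline cells per NBs I cell and 37.1% for the share of all cells. It was 37.4% outside NBs I and 27.6% among the 4 neuroblast labels. Of the 28 pairs, 4 were apart in midline cells per NBs I cell, and library 5 (0.0563 to 0.107) was separate there from libraries 6, 7 and 8, whose lower bounds were 0.117, 0.108 and 0.154.

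**Figure D1:**
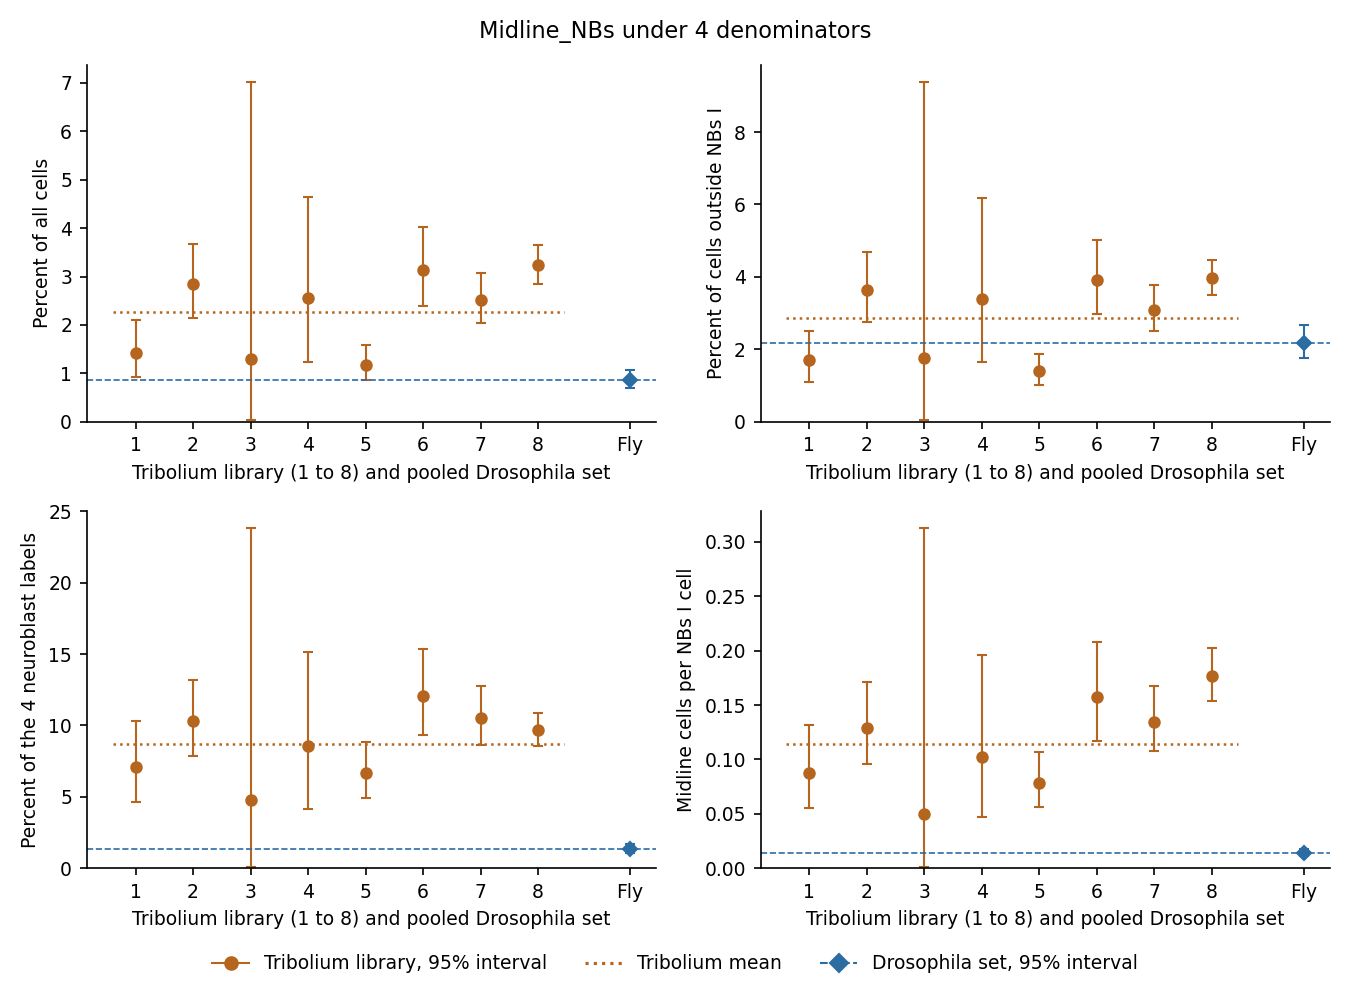
Midline_NBs under 4 denominators (y axes: percent of all cells, percent of cells outside NBs I, percent of the 4 neuroblast labels, and midline cells per NBs I cell), by library on the x axis. Circles are the Tribolium libraries and the diamond is the pooled Drosophila set, each with its exact 95% interval. Dotted lines are the Tribolium means and dashed lines the Drosophila values. The Drosophila value is under every library in 3 of the panels, and inside their range for the share outside NBs I.

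The size of the difference between beetle and fly depended on whether NBs I, the most frequent fly label, was in the denominator. Midline_NBs averaged 8.71% ± 2.41 of the 4 neuroblast labels in Tribolium (SD, n = 8 libraries), against 1.36% in Drosophila (90 of 6613 cells, exact 95% interval 1.10% to 1.67%), 6.40 times as much. The beetle libraries held 0.114 ± 0.0425 midline cells per NBs I cell (SD, n = 8), and the fly set held 0.0143 (95% interval 0.0115 to 0.0176), a ratio of 8.02. By library, midline cells per NBs I cell were 0.0874, 0.129, 0.05, 0.102, 0.0784, 0.157, 0.135 and 0.177 in libraries 1 to 8. All 8 libraries lay above the fly value, by 3.50 times in library 3 to 12.4 times in library 8. The counting interval of that ratio was above 1 in 7 of them, the exception being library 3, where it ran from 0.0836 to 22.4.

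Outside NBs I the species overlapped. Midline_NBs made up 2.86% ± 1.07 of these cells in Tribolium (SD, n = 8) and 2.18% in Drosophila (exact 95% interval 1.76% to 2.68%), a ratio of 1.31. The fly share was lower than in 5 beetle libraries (2, 4, 6, 7 and 8) and higher than in 3 (1, 3 and 5). The ratio of beetle to fly was above 1 beyond counting error in libraries 2, 6, 7 and 8, the largest being 1.81 in library 8 (95% interval 1.42 to 2.33). It was below 1 beyond counting error in library 5, at 0.636 (0.433 to 0.922). In libraries 1, 3 and 4 the interval included 1. Pooling all beetle cells gave a ratio of 1.42 (1.13 to 1.79), in which library 8 has the largest weight. These intervals were not adjusted for the number of libraries, and no p was computed, because the fly cells are 1 pooled set and 1 value against 8 cannot give an exact permutation p below 0.111.

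The values of other labels also depended on the denominator. The fly value was outside the range of the 8 beetle libraries for 6 of 10 labels as a share of all cells (60%), for 2 of the 4 neuroblast labels among themselves (50%), for 7 of 9 labels per NBs I cell (77.8%) and for 1 of 9 labels outside NBs I (11.1%). Midline_NBs was among the labels outside the range in the first 3 of these counts. NBs II/INPs was within the range there, although its ratios of beetle to fly were of similar size. Among the 4 neuroblast labels its ratio was 5.22, against 6.40 for Midline_NBs, and per NBs I cell it was 7.15 against 8.02. In these measures only library 3, with 0 NBs II/INPs cells, lay below the fly for NBs II/INPs. In the count outside NBs I, the label outside the range was PCGs, an abbreviation the labels do not explain. Leaving out any other single label in place of NBs I left the fly midline share under all 8 libraries. With GMC, the ganglion mother cells, left out, midline cells made up 3.91% ± 1.37 of the rest in Tribolium (SD, n = 8) and 1.06% in Drosophila, 3.69 times as much. Leaving out each of the 7 remaining labels gave ratios between 2.61 and 2.81, close to the ratio of 2.63 with no label left out.

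Midline cells were also set against each other label singly. With all beetle cells pooled, the beetle held 9.70 times as many midline cells per NBs I cell as the fly (95% interval 7.72 to 12.3). For the other 7 labels the pooled ratio lay between 0.788 for NBs II/INPs (0.575 to 1.08) and 2.29 for the blood cell label (1.77 to 2.99). The interval of the pooled ratio covers counting error only, not the spread between libraries. It was above 1 for each of these labels except NBs II/INPs, with the lowest bound, 1.02, for Mesodermal/muscle progenitors. For every one of these labels, however, at least 1 library lay below the fly. Library 8 held most beetle cells of NBs II/INPs and Sensory NBs (551 and 354). With libraries weighted equally, the ratio of the means was 1.32 for NBs II/INPs and 4.94 for Sensory NBs. The latter was raised by library 4, with 10 midline cells against 1 Sensory NBs cell (12.8 times the fly, 95% interval 1.74 to 559). The median over libraries was 3.29 midline cells per Sensory NBs cell, below the mean of 3.87, and the fly held 0.783. For both labels 6 libraries lay above the fly and library 8 below, and library 3 had no value. There were 0.0549 ± 0.0226 midline cells per GMC cell in Tribolium (SD, n = 8) and 0.0465 in Drosophila (95% interval 0.0372 to 0.0575), a ratio of the means of 1.18. This ratio was above the fly value in 5 libraries and below it in libraries 1, 3 and 5. Per cell of the label Mesodermal/muscle progenitors the beetle held 0.255 ± 0.119 midline cells and the fly 0.173, again with libraries on both sides, 6 above and 2 below. Per cell of the blood cell label (plasmatocytes/embryonic hemocytes/macrophages) the beetle held from 0.215 midline cells in library 5 to 2.04 in library 8, and the fly 0.256. Library 5 fell below the fly for 5 of the labels in the plot of beetle over fly ratios, with intervals below 1 for GMC, Mesodermal/muscle progenitors and NBs II/INPs/newborn neurons_1?.

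**Figure D2:**
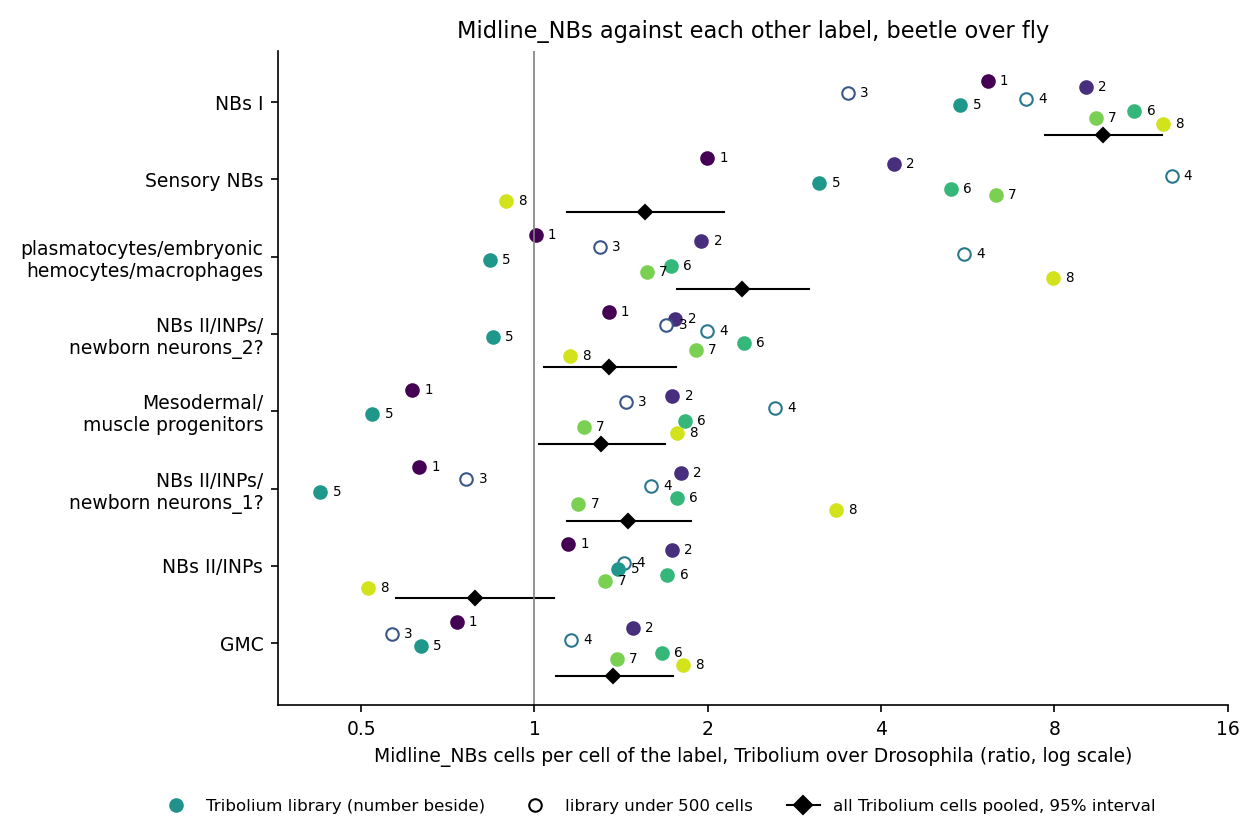
Midline_NBs cells per cell of each other label, Tribolium over Drosophila (x axis, ratio on a log scale), for 8 labels (y axis). Circles are single libraries with their number, open for those under 500 cells, and diamonds are all Tribolium cells pooled with their 95% interval. All circles for NBs I lie at 3.50 or more, while for every other label at least 1 library lies below 1. Library 3 is missing for Sensory NBs and NBs II/INPs, where it holds 0 cells.

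Among the neuroblasts outside NBs I, midline cells came first by count in most beetle libraries and last in the fly. NBs II/INPs names type II neuroblasts, which divide through intermediate neural progenitors, and Sensory NBs is a label that the sources used here do not explain. Midline_NBs outnumbered NBs II/INPs in 6 of 8 libraries, with 56 cells against 37 in library 2, 1 against 0 in library 3, 10 against 8 in library 4, 44 against 36 in library 5, 58 against 39 in library 6 and 94 against 81 in library 7. In library 1 both labels had 25 cells, and in library 8 midline cells were fewer, 247 against 551. In the fly set there were 90 midline cells, 103 NBs II/INPs and 115 Sensory NBs. The 95% interval of midline cells per NBs II/INPs cell included 1 in libraries 1, 2, 4, 5, 6 and 7. In library 8 this interval lay below 1 (0.384 to 0.522). The fly intervals included 1 per NBs II/INPs cell (0.651 to 1.17) and per Sensory NBs cell (0.587 to 1.04), so the fly order was within counting error.

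Within libraries, the midline share minus the NBs II/INPs share averaged 0.0476 ± 1.69 percentage points (SD, n = 8, exact two-sided sign-flip permutation p = 0.97, adjusted 0.97 over 3 label pairs). Without library 8, the one library below 0, the difference was 0.623 ± 0.479 points (SD, n = 7), and no p is given for it, since leaving out that library fixes the direction of the rest. Without library 2, 3, 4 or 6 the mean difference was below 0, with the lowest value, -0.131 points, without library 3. Midline_NBs exceeded Sensory NBs in 7 of 8 libraries, by 1.22 ± 1.27 points (SD, n = 8), which did not pass adjustment (exact permutation p = 0.047, adjusted 0.070). Without library 8, again the one library below 0, that difference was 1.60 ± 0.762 points (SD, n = 7), and no p is given for the same reason. Of the beetle libraries, library 8 had fewer midline cells than Sensory NBs, 247 against 354. Midline cells were fewer than NBs I in 8 of 8 libraries, with a difference in share of -17.9 ± 3.88 points (SD, n = 8, adjusted exact permutation p = 0.023). Before adjustment this exact permutation p was 0.0078, the smallest that 8 libraries can give. It says only that all 8 differences had the same sign.

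The midline share of library 8 among all cells, 3.23%, was the highest of the 8 libraries, next to library 6 at 3.13%, with overlapping intervals (2.85% to 3.65%, and 2.39% to 4.03%). Of the cells with the 3 smaller neuroblast labels, midline cells made up 21.4% in library 8 (exact 95% interval 19.1% to 23.9%), against 37.9% to 52.6% in the other libraries with more than 1 such cell. The Drosophila set lay between, at 29.2% (95% interval 24.2% to 34.6%), below those libraries and above library 8. Its interval overlapped those of library 1 (26.2% to 50.7%) and library 4 (28.9% to 75.6%), and was apart from those of libraries 2, 5, 6, 7 and 8. NBs II/INPs made up 47.8% of these cells in library 8 and 33.4% in Drosophila, and Sensory NBs 30.7% in library 8 and 37.3% in Drosophila.

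**Figure D3:**
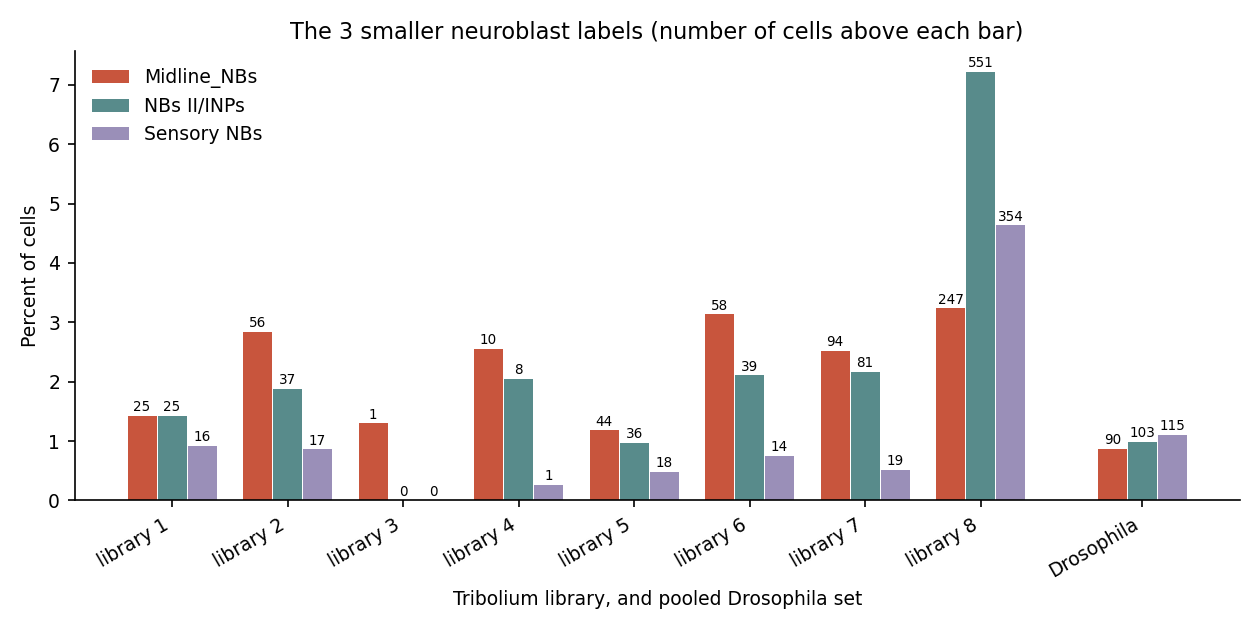
Percent of cells (y axis) with each of the 3 smaller neuroblast labels, by Tribolium library and in the pooled Drosophila set (x axis), with the number of cells above each bar. Midline_NBs is the tallest bar in libraries 2 to 7, level with NBs II/INPs at 25 cells in library 1, and the lowest of the 3 in library 8 and in Drosophila.

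Over the 8 libraries the midline share was compared with each other label, leaving that label out of the denominator so that shares that sum to the whole do not force a relation. Including the number of cells, 9 relations were computed. The midline share was higher where NBs II/INPs was more frequent (Pearson's r = 0.73, exact permutation p = 0.0014, adjusted 0.013). Spearman's rho was 0.81 (exact permutation p = 0.022), which did not pass adjustment (0.20). Libraries 3 and 8 had the NBs II/INPs shares farthest from the median, and with both left out r was 0.91 (n = 6, exact permutation p = 0.022, adjusted 0.12). With each library left out in turn, r stayed between 0.66 and 0.83, and the adjusted exact permutation p was under 0.05 in 4 of 8 cases. It was 0.20 without library 1, 0.30 without library 3, 0.10 without library 5 and 0.12 without library 8. Passing the threshold thus rested on libraries 1, 3, 5 and 8. Libraries 1, 3 and 5 were low in both labels, and library 3 held 1 midline cell and 0 NBs II/INPs cells.

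None of the other 8 relations passed adjustment (0 of 8), and 1 of them had an unadjusted exact permutation p under 0.05, that with NBs II/INPs/newborn neurons_2? (r = 0.69, p = 0.019, adjusted 0.087). With the number of cells in a library, r was 0.38 (n = 8, exact permutation p = 0.37). Over 8 libraries the midline share had r = 0.24 with NBs I and -0.05 with Mesodermal/muscle progenitors (exact permutation p = 0.55 and 0.90). Without libraries 3 and 4, which held 1 and 10 midline cells, these were 0.83 and -0.88 (n = 6, exact permutation p = 0.050 and 0.031, adjusted 0.15 and 0.14 over the 9 relations in those 6 libraries). In the same 6 libraries r was -0.84 with NBs II/INPs/newborn neurons_1? (exact permutation p = 0.022, adjusted 0.14), against -0.66 over all 8 (p = 0.068, adjusted 0.16). In that set libraries 1 and 5 had the lowest NBs I shares, 16.3% and 15.1%, the highest mesodermal shares, 13.4% and 13.0%, and the lowest midline shares. Whether the makeup of the sorted cells contributes to the midline share was not tested.

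**Figure D4:**
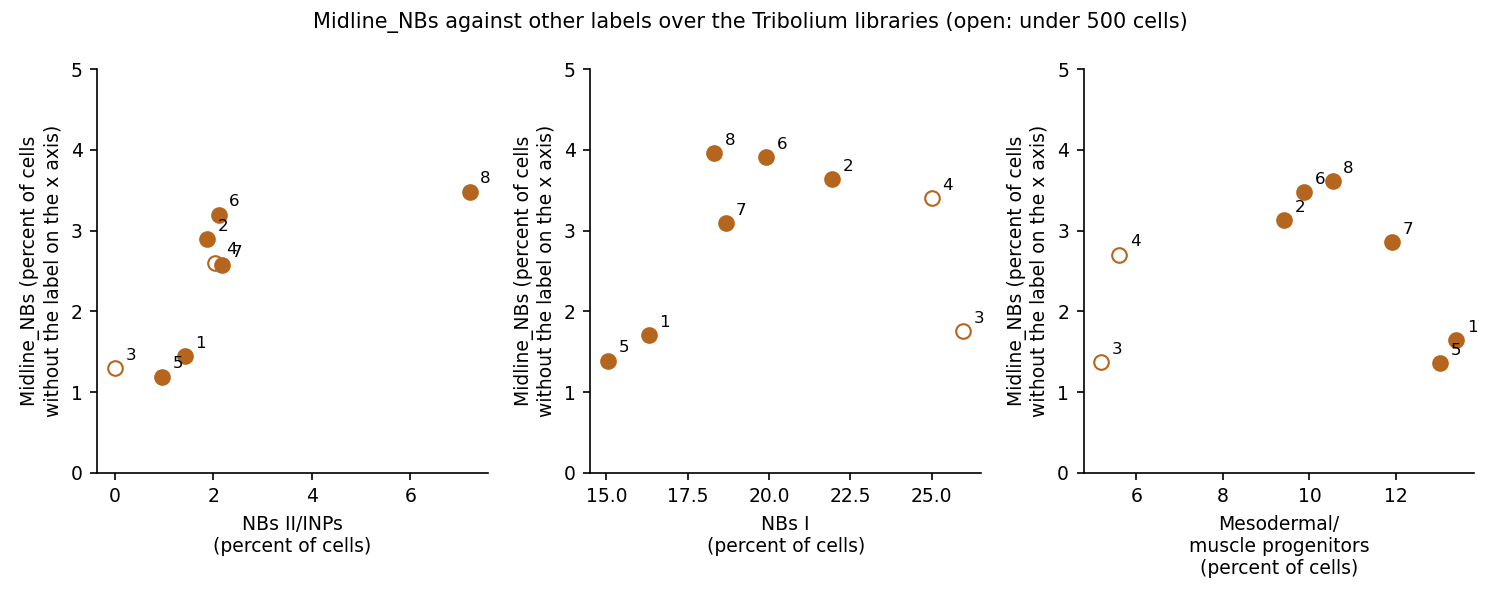
Midline_NBs as percent of cells without the label on the x axis (y axis), against NBs II/INPs, NBs I and Mesodermal/muscle progenitors (x axes, percent of cells), for the 8 Tribolium libraries, numbered. Open circles are libraries 3 and 4, with under 500 cells. In the left panel libraries 1, 3 and 5 are low on both axes, and in the middle and right panels libraries 3 and 4 have the highest NBs I shares and the lowest mesodermal shares.

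The fly midline cells came almost wholly from barcodes without a suffix. Of 10232 such cells, 89 were midline (0.870%, exact 95% interval 0.699% to 1.07%). Among the 193 fly cells whose barcode has a suffix, 1 was midline (0.518%, 0.0131% to 2.85%), which at this number of cells does not tell the sets apart.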

How the data were processed

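The authors deposited 1 table with a barcode, a categorical cell label and a species per cell; it holds no counts. Label transfer is named in the table's title, and Cell Ranger and Scanpy, per the submitters' processing notes, with no version or role; no source used here states a genome build, cell filters or doublet treatment. Members are the cells labelled Midline_NBs. The barcode suffix of a Tribolium cell was taken as the replicate number of its library, a match that rests on the number alone. Fly cells were treated as 1 pooled set.

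Libraries were weighted equally. Shares have exact (Clopper-Pearson) 95% intervals, ratios of shares exact conditional Poisson intervals, and ratios of cells per cell conditional odds ratio intervals. A count of 0 allows 3 cells of the total. Libraries are described as replicates in the labels, with no word on separate embryo collections. SDs thus measure the spread between these samples, which may be technical, and p-values refer to these samples only. Sign-flip tests and correlations used exact two-sided permutation with Benjamini-Hochberg adjustment and a threshold of 0.05, and were checked on simulated data. Any of the 10 labels was eligible to be named in the text. PCGs, with 2 beetle cells, was left out of the ratios and relations. The members, lists and tests were chosen with earlier results of these data known. The ratios to single labels other than NBs I, the chi-square per degree of freedom and the shares among the 3 smaller neuroblast labels were added after the data were seen. Scripts ran in Python 3.11.15 with scipy 1.17.1, pandas 2.3.3 and numpy 2.4.6, and figures were drawn with matplotlib 3.10.9.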

Additional observations from a re-analysis of the deposited data

Results flagged for a closer look

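For 15 midline measures, the distance of the outermost library from the next was set against the spread of all libraries, and 3 values stood out (Dixon's 95% criterion). Chance alone picks out about 1 in 20 sets, and these measures share cells. Library 8 held 0.486 midline cells per NBs II/INPs/newborn neurons_1? cell, against 0.0620 to 0.262 in the other libraries. The midline minus NBs II/INPs share in library 8 was -3.98 percentage points, against 0 to 1.30 points elsewhere. In library 3, midline cells made up 100% of the 3 smaller neuroblast labels, which is 1 cell.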

How the results depend on the processing

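Of 44 values recomputed under a setting other than leaving out 1 library, 38 kept their direction, their side of the threshold or, where untested, stayed within 1 SD. That SD is the spread between libraries and is wide, for example 0.977 on the species ratio of 2.63. Staying within it is therefore a weak criterion. With GMC left out of the denominator, a setting chosen after the data were seen, the species ratio of the midline share was 3.69 in place of 2.63. Without the libraries of fewer than 500 cells, midline minus NBs II/INPs was -0.238 percentage points. Midline minus NBs I was -16.0 points there, with an adjusted exact permutation p of 0.094. Its p before adjustment, 0.031, was the smallest that 6 libraries can give. On a log2 ratio with 0.5 cells added, midline over Sensory NBs was 1.47 on average and passed (adjusted exact permutation p = 0.023). No relation over libraries passed (0) without the 2 farthest libraries or without the small ones. Leaving out each library in turn, midline minus NBs II/INPs ranged from -0.131 to 0.623 points, midline minus Sensory NBs from 1.06 to 1.60 points, with library 8 setting the upper end of each, and the relations that passed from 0 to 1. The species ratio ranged from 7.4 to 8.67 per NBs I cell and from 1.24 to 1.40 outside NBs I. No fit with the replicate number as a block between groups was possible because all 8 libraries form 1 group; labels were compared within libraries. The number of midline cells limits libraries 3 and 4, with 1 and 10.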
